A study of Mus musculus with 10 samples.

Results

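In mouse large biliary epithelial (MLE) cells, 9644 regions of the genome carried a RUNX1 chromatin immunoprecipitation (ChIP) peak in both TGFβ libraries of batch 1 and in none of the other 4 libraries. They were chosen by their calls alone. Peaks of the 6 deposited lists that overlapped by at least 1 bp were merged into 64286 regions. Regions starting between 3 and 20 Mb on chromosome 5 were set aside by the same rule. Of the 59292 regions left, the 9644 were 16.3%, the second most frequent of all call patterns. They are called batch 1 TGFβ regions here. The 4994 regions set aside held another 154 with the same calls.

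The series holds 10 samples, of which the 6 RUNX1 ChIP libraries have a peak list and the 4 input libraries were not analysed here. Cells of 1 type and no stated genetic change were grown to near confluence and kept overnight with TGFβ at 10 ng/mL or with vehicle. Each treatment had 3 ChIP libraries, of which replicates 1 and 2 belong to batch 1 and replicate 3 to batch 2, a batch being whatever the labels number as such. The labels name no separate cultures for replicates 1 and 2, so the spread between them may be technical, and peak lists offer no expression by which to check the cell type.

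RUNX1 is a DNA-binding transcription factor of the Runt domain family that binds together with its partner CBFβ. TGFβ signals through receptor kinases that activate SMAD proteins, which bind DNA weakly by themselves and meet RUNX proteins and other factors at enhancers. In the epithelium of bile ducts TGFβ is known for growth arrest, for loss of epithelial traits and for matrix production in fibrosis. A ChIP peak marks DNA recovered with the antibody above the local background, and a peak list holds only what passed the caller's threshold. A region missing from a list is therefore one that was not called, and not one without RUNX1.

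Among call patterns, only the 12685 regions found in TGFβ replicate 2 alone were more numerous. The opposite pattern, a call in both batch 1 vehicle lists and in no other list, was held by 100 regions (0.169% of the 59292). The lists differed in length, and part of both counts cannot be told apart from that. Outside the chromosome 5 stretch, TGFβ replicates 1 and 2 covered 29980 and 40667 regions, and vehicle replicates 1 and 2 covered 12736 and 18652. The batch 1 TGFβ regions made up 32.2% of the regions of TGFβ replicate 1 and 23.7% of those of TGFβ replicate 2. Of the 26518 regions called in both of these lists, they were 36.4%. With every list limited to the length of the shortest, the pattern was held by 2271 regions. Neither the opposite pattern nor all merged regions were counted in that setting, so it gives no share and no comparison of the patterns. Without TGFβ replicate 1 the rule asked only for a call in TGFβ replicate 2 and in no other list. That looser rule was met by 22578 regions, by construction more.

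**Figure D1:**
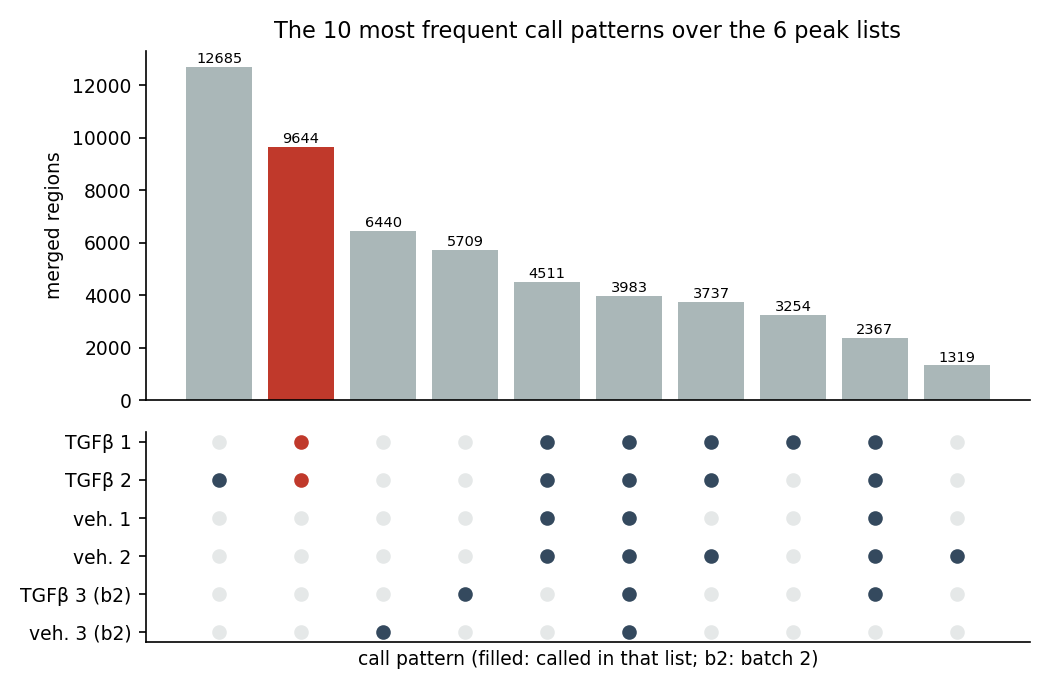
Bars give the number of merged regions with each of the 10 most frequent call patterns, and filled dots below each bar mark the lists that called them (b2 marks batch 2). The red bar, called in both batch 1 TGFβ lists and no other, stands at 9644 regions, second to the 12685 of TGFβ replicate 2 alone.

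The authors' fold enrichment, which compares the signal at a summit with the background taken for it, placed most of these regions in the lower and middle part of their lists. In TGFβ replicate 1 their fold ran from 1.59 to 17.2 with a median of 2.84. In TGFβ replicate 2 it ran from 1.73 to 22.0 with a median of 3.33. The 2 lists described the same group differently: 67.1% of the regions fell below the median −log10 q of replicate 1, against 49.8% in replicate 2. Both values were below the middle of their list in 4455 regions (46.2%) and above it in 2825 (29.3%). A fold of at least 5 in both lists was reached by 604 regions (6.26%), and a fold of at least 10 in both by 23.

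The fold and p-value of a peak also give the number of overlapping DNA fragments at its summit. The median batch 1 TGFβ region had 36 fragments in TGFβ replicate 1 over a background of 11.3, and 39 fragments in replicate 2 over a background of 10.4. These median backgrounds equal the lowest of each list. The fold of a typical region therefore followed its fragment count and not a background particular to its place. In 9 of 10 regions the summit held no more than 56 and 64 fragments, and the highest single values were 211 and 250. These are small numbers, so a single region's fold is imprecise. At backgrounds within 2% of their lowest, the vehicle lists called peaks from 23, 24 and 25 fragments upwards in replicates 1, 2 and 3, which corresponds to folds of 2.05, 2.00 and 1.99. A vehicle signal just under those values would leave a region in the group.

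Regions shared by more libraries had higher values within the same lists. The 4511 regions called in all 4 libraries of batch 1 and in neither of batch 2 had median folds of 4.46 and 5.70 in TGFβ replicates 1 and 2. For the 3983 regions called in all 6 lists, the medians were 5.75 and 8.15. The 384 regions that all 3 TGFβ libraries and no vehicle library called lay between the batch 1 TGFβ regions and these, at 3.97 and 4.82. The calls that define the classes use the same values, so these medians describe the classes and test nothing.

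**Figure D2:**
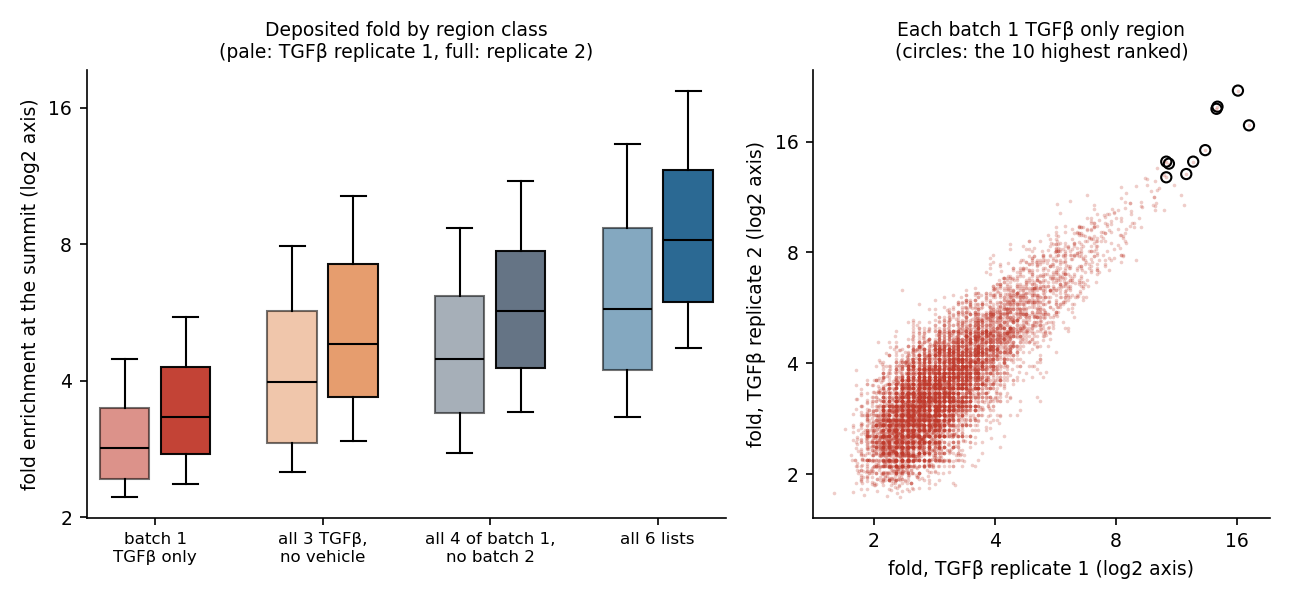
Left, deposited fold enrichment (log2 axis) of 4 region classes in TGFβ replicate 1 (pale) and replicate 2 (full colour); boxes span the quartiles with the median as a line, and whiskers reach the 10th and 90th percentiles. Right, each point is 1 of the 9644 batch 1 TGFβ regions, with its fold in replicate 1 against replicate 2 on log2 axes; the 10 highest ranked, circled, reach folds of 10.7 to 17.2 in replicate 1 and 12.8 to 22.0 in replicate 2.

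The 2 libraries ordered the regions alike. Across the 9644 regions the log2 folds of TGFβ replicates 1 and 2 had a Pearson correlation of 0.817 and the folds a Spearman correlation of 0.736. These describe regions and not independent replicates, and both libraries share a batch, a treatment and the requirement that each passed the threshold. Over the 4511 regions of all 4 batch 1 libraries, where values spread wider, the same figures were 0.914 and 0.896. Fold was higher in replicate 2 than in replicate 1 in 77.7% of batch 1 TGFβ regions and in 96.9% of the constitutive ones, those of all 6 lists. The lowest background was also lower in replicate 2, at 10.4 against 11.3 fragments, and its share in this was not tested. Replicate 2 also had the wider peaks, with median widths of 702 bp against 471.5 bp over the batch 1 TGFβ regions.

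Merged batch 1 TGFβ regions were 774 bp wide at the median, from 240 to 4025 bp, and together covered 8.37 Mb. Only 2.41% were wider than 2000 bp, against 20.3% of the regions of all 4 batch 1 libraries and 52.9% of those of all 6. Nearly all were single peaks: 9342 held 1 peak in each list, and 302 held up to 3 in a list. The strongest summits of the 2 lists lay 58 bp apart at the median and within 100 bp in 64.1% of regions. In the regions of all 4 batch 1 libraries the median gap was 33 bp and the share 77.9%. Summit agreement rose with strength inside the group. To order the regions, each was given the lower of its 2 within-list percentile ranks of −log10 q. Summits lay within 100 bp in 42.3% of the 2576 regions ranked at 20 or lower, and in 96.0% of the 405 ranked above 80.

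The region with the highest lower rank lay on chromosome 1 from 71925379 to 71928878 (GRCm39, as are all coordinates here). Its folds were 16.1 in TGFβ replicate 1 and 22.0 in TGFβ replicate 2, from 198 and 250 fragments at summits 31 bp apart. It was 231 kb from the nearest region called in all 6 lists and 14.8 kb from the nearest region of a vehicle list. A second, weaker batch 1 TGFβ region stood 2.96 kb away, from 71931837 to 71933849, with folds of 3.39 and 4.53. Less than 1 Mb from the first, the region ranked 4, from 71041257 to 71045281, had folds of 14.3 and 19.6 and was also the widest of all 9644 at 4025 bp. It too had a weak companion, 0.995 kb away, with folds of 2.55 and 2.39.

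The region ranked 2, on chromosome 10 from 116055872 to 116057248, reached folds of 17.2 and 17.7 at summits 17 bp apart. The region ranked 3 lay on chromosome 12 from 44571015 to 44572160 and reached 14.3 and 19.9. It was the most isolated of the first 4 from vehicle peaks: the nearest region of any vehicle list, 254 kb away, was itself called in all 6 lists. A weaker batch 1 TGFβ region lay 2.77 kb from it, with folds of 3.08 and 4.10.

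On chromosome 16, the region from 95628399 to 95629261 had folds of 13.4 and 15.2, a weak companion 1.05 kb away, and a vehicle region at 11.8 kb. On chromosome 13, from 90484928 to 90486800, the folds were 12.5 and 14.1, with a companion at 1.42 kb and a vehicle region at 2.44 kb. So 5 of the first 6 regions had another batch 1 TGFβ region within 3 kb, a count made after their values were seen. For the regions ranked 7 to 10 the nearest one lay 34.0, 41.4, 28.4 and 9.245 kb away. Over the group ranked above 80 the share with one within 3 kb was 17.0%, and in the group ranked at 20 or lower 13.8%.

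Of the other 4 among the first 10, 2 lay far from regions called in all lists. On chromosome 10 from 25990179 to 25990860 the folds were 11.997 and 13.1, with the nearest such region 753 kb and the nearest vehicle region 117 kb away. On chromosome 12 from 33285246 to 33286254 they were 10.9 and 13.9, at 1284 kb and 87.1 kb. The remaining pair lay closer to shared sites. On chromosome 6 from 108681024 to 108684608 the folds were 10.7 and 14.1, and a vehicle region began 1.09 kb away. On chromosome 11 from 87569360 to 87570662 they were 10.7 and 12.8, with a region of all 6 lists at 55.8 kb.

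Next in width after the 4025 bp region on chromosome 1 were 2 weaker ones. A region of 3803 bp on chromosome 2, from 27722742 to 27726544, reached folds of 4.08 and 6.26. One of 3699 bp on chromosome 6, from 108426921 to 108430619, reached 3.97 and 5.61 and lay 2.17 kb from a constitutive region.

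At the other end of the group, values sat on the threshold. The region with the lowest rank stood on chromosome 11 from 43573784 to 43574245. Its folds were 2.00 and 1.87, with −log10 q values of 1.41 and 1.01, from 25 and 22 fragments. It lay 0.081 kb from a region called in all 6 lists. On chromosome 2, the regions from 33170392 to 33170789 and from 49741377 to 49741714 both had a fold of 1.80 and a −log10 q of 1.00 in TGFβ replicate 1. The lower −log10 q of the 2 lists was under 2 in 719 of the 9644 regions (7.46%). Just outside the rule were 3737 regions called in both TGFβ lists and in vehicle replicate 2 only, of which 271 had a vehicle −log10 q under 2. A call in vehicle replicate 1 only kept out 503 regions (83 under 2), in vehicle replicate 3 only 42 (16 under 2), and in TGFβ replicate 3 only 384 (59 under 2).

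Batch 2 was read next as libraries of the same treatments that took no part when regions are chosen on batch 1 alone. Its lists held weaker and narrower peaks. Median folds were 2.60 and 2.42 in TGFβ and vehicle replicate 3, against 3.08 to 3.33 in the batch 1 lists. Median peak widths were 343 and 319 bp, against 523 to 735 bp. These medians are over all peaks of a list, those of the chromosome 5 stretch included. Whether the weaker and narrower peaks lowered the shares below was not tested. Of 10096 regions that both TGFβ lists and neither vehicle list of batch 1 held, TGFβ replicate 3 called 410 and vehicle replicate 3 called 68. These were shares of 4.06% (95% exact binomial interval 3.68% to 4.46%) and 0.674% (0.523% to 0.853%); the intervals cover counting error only. Over the 46051 regions called in at least 1 batch 1 list, the shares were 17.4% and 10.7%. Batch 2 has 1 library per treatment, so the treatments were not tested against each other here. Neither batch 2 list called 9644 of the 10096 (95.5%), which are the batch 1 TGFβ regions, while 384 were called in TGFβ replicate 3 only, 42 in vehicle replicate 3 only and 26 in both.

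The TGFβ count was 6.03 times the vehicle count in this set. In the 11191 regions called in all 4 batch 1 lists, TGFβ replicate 3 held 6350 and vehicle replicate 3 held 4313, a ratio of 1.47. In the 115 regions that both vehicle lists and neither TGFβ list of batch 1 held, the counts were 12 and 10. Among the 5231 regions held by both TGFβ lists and 1 vehicle list of batch 1, the ratio was 2.60. The 2 batch 2 lists as a whole held 14813 and 12471 regions outside the chromosome 5 stretch. Without vehicle replicate 2 in the choice, the shares called in TGFβ and vehicle replicate 3 were 8.31% and 2.58%. Without TGFβ replicate 1, when the choice asked for TGFβ replicate 2 and neither vehicle list of batch 1, the TGFβ share was 2.19%. In lists of equal length the shares were 10.1% and 0.945%, and at a −log10 q of at least 5 they were 2.55% and 0.247%. With peaks up to 1 kb apart merged they were 4.99% and 1.24%.

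Strength in batch 1 went with calls under TGFβ in batch 2. Among the chosen regions ranked at 20 or lower, 45 of 2628 (1.71%, interval 1.25% to 2.28%) were called in TGFβ replicate 3. This share was 2.35%, 3.27% and 6.78% in the next 3 bins of rank, and in the bin above 80 it was 21.9% (115 of 524, interval 18.5% to 25.7%). The corresponding shares in vehicle replicate 3 were 0.571%, 0.619%, 0.704%, 0.616% and 1.53%, with overlapping intervals. Regions held by both TGFβ lists and 1 vehicle list of batch 1 also had their highest TGFβ share in the highest bin, but their lowest vehicle share. From the lowest to the highest bin their TGFβ share went from 12.7% to 28.7%. Their vehicle share went from 7.66% (interval 5.74% to 9.97%) to 2.80% (interval 1.57% to 4.57%). In regions of all 4 batch 1 lists both shares rose with rank, from 28.1% to 68.2% in TGFβ replicate 3 and from 14.5% to 48.6% in vehicle replicate 3. Within the highest bin, the TGFβ share was 21.9% without a batch 1 vehicle call, 28.7% with 1 and 68.2% with both. Ranks inside that bin were not matched between these sets. The 28.1% of the lowest bin with both had an interval of 22.2% to 34.5%.

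**Figure D3:**
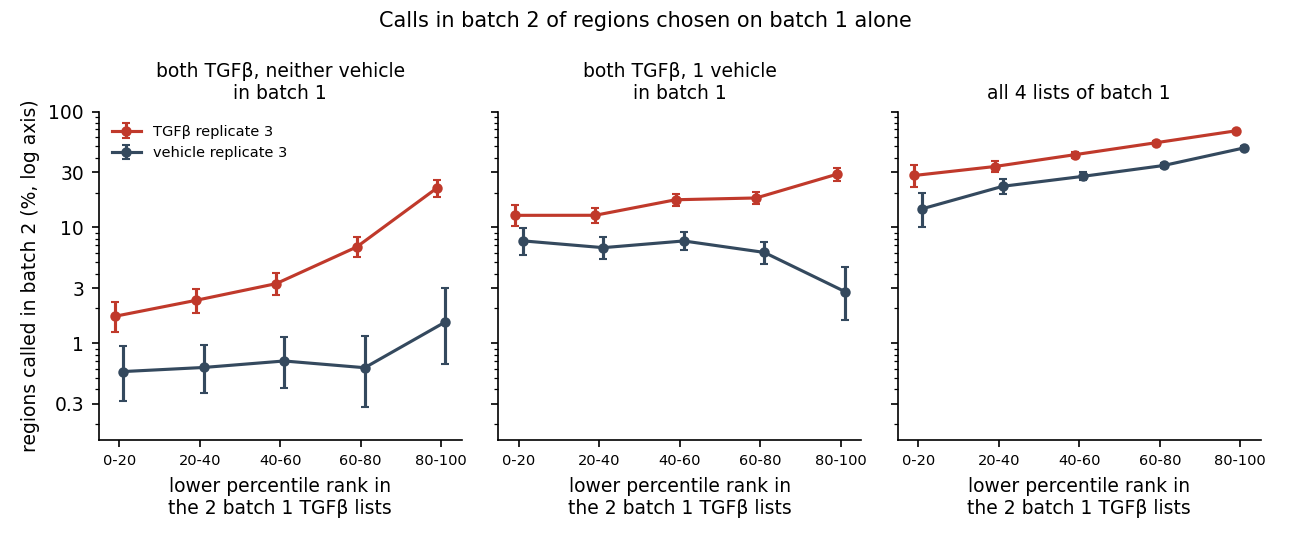
Share of regions (%, log axis) called in TGFβ replicate 3 (red) and vehicle replicate 3 (dark), for regions chosen on batch 1 calls alone, by the lower of their 2 percentile ranks in the batch 1 TGFβ lists; bars are 95% exact binomial intervals. In the left panel the TGFβ share goes from 1.71% to 21.9% and the vehicle share from 0.571% to 1.53%. In the middle panel the TGFβ share goes from 12.7% to 28.7% and the vehicle share from 7.66% to 2.80%. In the right panel both rise together.

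Each batch 1 TGFβ region was measured to its nearest constitutive site. The median distance, edge to edge, to the nearest of the 3983 regions called in all 6 lists was 134 kb, with quartiles of 38.0 and 415 kb. Within 100 kb lay 43.7% of them (Wilson interval 42.7% to 44.7%, counting error only), within 10 kb 10.1% and within 1 kb 2.09%. The share within 100 kb was 24.99% when peaks wider than 2000 bp were left out, and 76.3% without both batch 2 libraries, an alternative added after the data were seen. A distance over 1 Mb was found for 1045 regions (10.8%), and for 1 region no such site existed on its sequence. The 4511 regions of all 4 batch 1 libraries had a median of 105 kb and a share within 100 kb of 48.8%. For the 384 regions of all 3 TGFβ lists these were 114 kb and 46.1%, and for the constitutive regions, measured to their nearest neighbour, 70.1 kb and 59.7%. Neighbouring regions are not independent, so the difference between classes is given without a test.

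The stronger a batch 1 TGFβ region, the farther it tended to lie from a constitutive site. The median distance was 102 kb for ranks of 20 or lower and then 124, 143, 190 and 227 kb in the following bins. The share within 100 kb went from 49.5% to 33.3%, and the share within 1 kb from 4.46% to 0.494%. Regions of all 4 batch 1 libraries showed no such order, with medians of 127, 89.3, 99.6, 100 and 129 kb. Among the constitutive regions the medians went the opposite way, from 139 kb in 24 regions at the lowest ranks to 64.9 kb in 2316 at the highest. The fall in the share within 1 kb was not particular to the batch 1 TGFβ regions. From the lowest to the highest bin it went from 3.97% to 1.90% in regions of all 4 batch 1 libraries. In the constitutive regions it went from 4.17% to 1.38%, and in regions of all TGFβ lists and no vehicle list from 5.41% to 0%. Width rose with rank in the batch 1 TGFβ regions, from 628 to 1253 bp at the median.

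**Figure D4:**
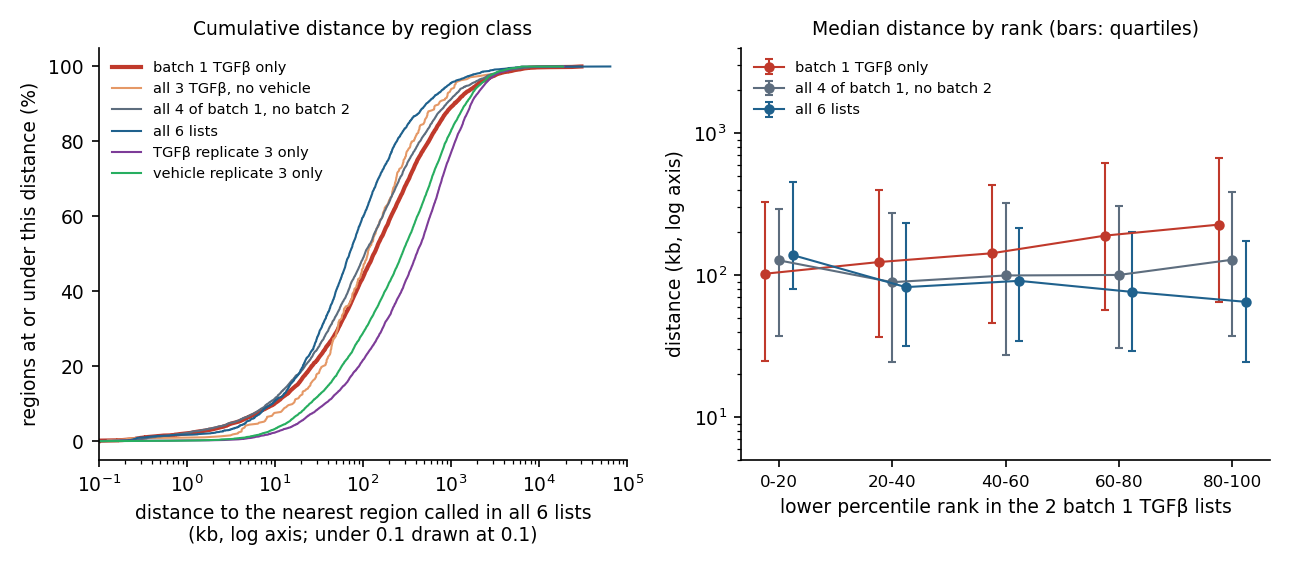
Left, cumulative share of regions (%) by distance (kb, log axis) to the nearest region called in all 6 lists, for 6 classes; the batch 1 TGFβ curve crosses 100 kb at 43.7%, below the 48.8% of regions of all 4 batch 1 libraries and above the 21.6% of regions of TGFβ replicate 3 alone. Right, median distance by rank, with quartiles as bars; batch 1 TGFβ regions go from 102 to 227 kb.

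Distances to vehicle regions were measured for the batch 1 TGFβ regions alone, so no share of another class stands beside them. The nearest of the 27508 regions of any vehicle list was 14.5 kb away at the median. It lay within 1 kb of 1009 batch 1 TGFβ regions (10.5%) and within 10 kb of 3999 (41.5%). Median folds of the 1009 were 2.51 and 2.89 in TGFβ replicates 1 and 2. The 5645 regions with no vehicle region within 10 kb (58.5%) had 2.997 and 3.51, and the 1036 with none within 100 kb (10.7%) had 3.08 and 3.68. By rank, the share with a vehicle region within 1 kb was 17.4% in the lowest bin and 3.70% in the highest. When peaks up to 1 kb apart were merged, a choice made after the data were seen, 8382 merged regions had the call pattern, and 8393 of the 9644 (87.0%) touched one of them.

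From a batch 1 TGFβ region to the nearest other one the median distance was 29.97 kb, with 27.8% within 10 kb. They occupied 1824 windows of 1 Mb with a median of 4 per occupied window, and 276 windows with 10 or more held 3552 of them. The fullest window, on chromosome 2 from 117 to 118 Mb, held 32, out of 58 regions called in both batch 1 TGFβ lists. The next, on chromosome 2 from 137 to 138 Mb, held 29 of 41 but only 1 region called in all 6 lists. The third, on chromosome 1 from 71 to 72 Mb, held 23 of 37, among them the regions ranked 1 and 4. On chromosome 8 from 122 to 123 Mb and on chromosome 13 from 52 to 53 Mb, 22 of 44 and 20 of 39 regions were of this kind, and neither window held a region of all 6 lists. Such windows without a constitutive site held 22.6% of the batch 1 TGFβ regions.

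Chromosomes differed in how many of their batch 1 TGFβ peaks had this pattern. Against 36.4% over all regions called in both lists, among chromosomes 1 to 19 and X the share was lowest on chromosomes 19 (29.4%) and 11 (29.5%). Among these it was highest on chromosome 18 (46.2%) and on X (53.2%, 74 of 139 regions). Chromosome 11 held 12.1% of the regions called in all 6 lists and 6.77% of the batch 1 TGFβ regions. Chromosome 18 held 1.13% and 2.79%, and chromosome 12 1.46% and 3.42%. Chromosomes 2 and 1 held the most batch 1 TGFβ regions, 951 and 866.

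**Figure D5:**
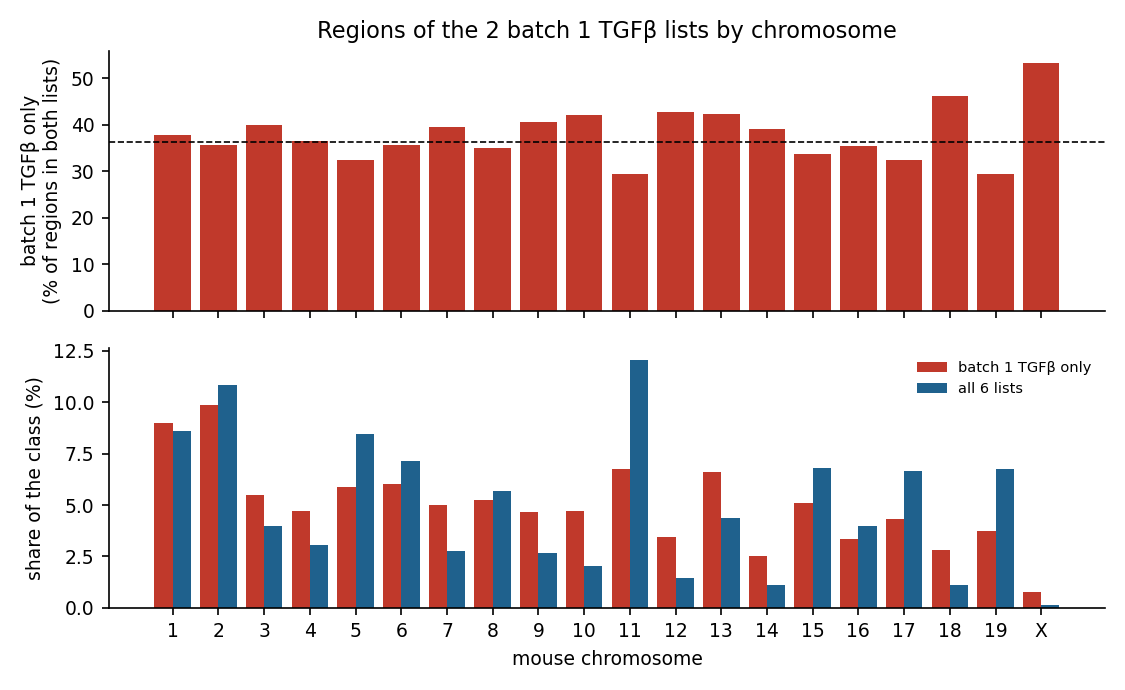
Top, share (%) of the regions called in both batch 1 TGFβ lists that no other list called, by chromosome, with the value over the chromosomes shown as a dashed line; among the chromosomes shown it runs from 29.4% on chromosome 19 to 53.2% on X. Bottom, share (%) of each class on each chromosome; chromosome 11 holds 6.77% of batch 1 TGFβ regions and 12.1% of regions called in all 6 lists.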

How the data were processed

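Values came from 6 peak lists, 1 per ChIP library, that the authors deposited in narrowPeak format. Per the submitters' processing notes, DRAGEN, Trimmomatic, Bowtie2 2.5.2 and MACS2 were used with the builds mm39 and GRCm39; their order, settings and control libraries are not given in the sources used here. The deposited values are a fold enrichment (a ratio, column 7), the −log10 of a p-value and of a q-value, a score derived from it, and a summit. The lowest deposited −log10 q was 1.00. Read totals are unknown, and lists hold no counts per region, so no model was fitted.

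Region classes, distances and ranks were computed in Python 3.11.15 with pandas 2.3.3 and scipy 1.17.1, and checked on simulated data. Distances run to regions outside the chromosome 5 stretch. Percentile ranks were taken over all peaks of a list, that stretch included. Pileup and background were recovered by taking fold as (pileup + 1)/(background + 1) and p as a Poisson tail, matched within 0.001 in all batch 1 TGFβ regions. A list's lowest background, from 10.4 to 11.8 fragments over the 6 lists, is its only sign of depth.

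Regions named are the 10 with the highest lower rank, the widest, and the 3 with the lowest. The members and lists were chosen with earlier results of these data known. The gene and promoter tables at hand are of GRCm38, so no gene, motif or sequence was assigned to a region.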

Additional observations from a re-analysis of the deposited data

How the results depend on the processing

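The main values were 9644 regions, 43.7% of them within 100 kb of a region called in all lists, and, for regions chosen on batch 1, 4.06% called in TGFβ replicate 3 and 0.674% in vehicle replicate 3. A −log10 q of at least 5 gave 29.7%, 2.55% and 0.247% for the 3 shares; of its 7485 regions some are new, since only 51.2% of the 9644 touched one. Summit windows gave 29.6% and 2.78% in TGFβ replicate 3. Lists of equal length gave 2271 regions, with 32.8%, 10.1% and 0.945%. Only 17.8% of the 9644 touched one of these. Without peaks over 2000 bp, 24.99% were near a region of all lists, many of which are that wide. With the chromosome 5 stretch kept, the vehicle share was 0.971%. Within 10 kb lay 10.1%. Leaving out each library in turn gave 9689 to 22578 regions, 45.2% to 59.3% near, 2.19% to 8.31% in TGFβ replicate 3 and 0.486% to 2.58% in vehicle replicate 3. A list left out sets no condition, so by construction these region counts could not fall below 9644. Without both batch 2 libraries 76.3% were near, by construction with fewer lists to satisfy. Merging peaks up to 1 kb apart gave 41.2%, 4.99% and 1.24%; both last settings were chosen after the data were seen. Where no construction is named, the cause was not tested. The TGFβ share exceeded the vehicle share in each setting that gave both. The 10 regions named first kept the pattern in each setting but the width limit, which kept 7. Most of these outcomes were fixed in advance. Leaving out libraries or keeping the chromosome 5 stretch kept all 9644. The 10 were picked for high −log10 q, so neither the cut at 5 nor equal list length could remove their TGFβ peaks. No paired analysis was possible because the results come from no test. The planned shares with a RUNX motif or at a gene start were not run, for want of a genome of the build. How close an uncalled region came to a list's threshold cannot be read from these lists.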

Other observations

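Regions called in a single batch 2 list lay farther from the sites called in all 6 lists than any batch 1 class measured here. The 5709 regions of TGFβ replicate 3 alone had a median distance of 407 kb and 21.6% within 100 kb. The 6440 regions of vehicle replicate 3 alone had 279 kb and 28.8%. Regions of TGFβ replicate 1 alone (3254) and of TGFβ replicate 2 alone (12685), which missed the batch 1 TGFβ group by 1 list, were nearer, at 86.9 and 102 kb. Among the classes whose folds were measured here they also had the lowest medians in their lists, 2.27 and 2.40, with maxima of 4.36 and 6.75. The calls that define these classes use the same values, so this is description only. The 100 regions called in both batch 1 vehicle lists and no other were 515 bp wide at the median and lay 114 kb from such a site.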
